A study of Mus musculus with 46 samples.

Results

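The granzyme genes Gzma, Gzmb, Gzmc, Gzmd, Gzme, Gzmf, Gzmg, Gzmk and Gzmm and the perforin gene Prf1 were examined in mouse MC-38 tumors under PD-1 blockade. These 10 genes were taken by symbol from an expression table of 48795 genes, and each was found once. RNA had been sequenced in 46 samples of 8 groups, namely 3 cultures of the MC-38 colon carcinoma line and 43 subcutaneous tumors grown from it. The 3 baseline tumors came from untreated wild-type C57BL/6NTac mice. The antibody study used wild-type mice of the same strain given isotype control antibody or the PD-1 antibody muDX400 (PD-1 Ab, 5 mg/kg). Tumors were taken after 1 dose at day 11 after implantation or after 2 doses at day 15, with 5 tumors in each of these 4 groups. The dose of the isotype antibody was not given in the sources used here. In the deletion study, 10 PD-1cKO tumors and 10 tumors from littermates labelled WT were compared. PD-1cKO mice carried floxed Pdcd1 exons 2 and 3 (Pdcd1 fl/fl) and creERT2 at the ROSA26 locus, so the deletion was not limited to T cells. Both PD-1cKO and WT mice received 5 injections of tamoxifen at 40 mg/kg. The labels give day 28 for these tumors, whereas the methods give day 22. All mice were females of 8 to 10 weeks.

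Granzymes are serine proteases stored in the granules of cytotoxic lymphocytes, and perforin forms the pores through which they enter the cytosol of a target cell. Granzyme B cleaves its substrates after aspartate and granzyme A is a tryptase, both classic products of effector CD8+ T cells and NK cells. Granzyme K is a tryptase found in T cells of a memory or transitional effector state. Granzymes C, D, E, F and G are rodent enzymes encoded beside Gzmb and described in strongly stimulated CD8+ T cells and in NK cells. Granzyme M is best known from NK cells.

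Values are FPKM, a fragment count scaled to transcript length and to sequencing depth, so that levels can be set side by side between genes. In whole tumors fewer cells of a type and less RNA per cell cannot be told apart. The isotype day 11 tumor of replicate 1 stood apart, since mitochondrial genes made up 54.6% of its summed FPKM, and the day 11 differences of the members are given with and without it. In the deletion study short noncoding RNAs took 30.2% to 66.5% of the summed FPKM, against under 1% in the antibody study, so levels set across the 2 studies are descriptive. Sample identifiers in the labels fell into runs. One run held 7 PD-1cKO tumors and no WT tumor, and another held 9 WT tumors and 1 PD-1cKO tumor. Pdcd1 itself was at 5.05 to 19.9 FPKM (median 8.29) in the 10 tumors labelled PD-1cKO and at 1.71 to 7.02 FPKM (median 3.01) in WT, higher and not lower. This value also counts fragments from exons outside the floxed ones, so it does not check the deletion, and genotypes are those of the labels.

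Gzmb and Gzmc to Gzmg lie on the minus strand of chromosome 14 (GRCm38) between positions 56117626 (the end of Gzme) and 56262260 (the start of Gzmb). In order along the chromosome they are Gzme, Gzmd, Gzmg, Gzmf, Gzmc and Gzmb. Gzma (chr13:113093825-113100981) and Gzmk (chr13:113171608-113225908) are neighbours on chromosome 13, and Gzmm (chr10:79689020-79695261) and Prf1 (chr10:61297833-61304680) lie apart on chromosome 10. The coding sequences of Gzmd and Gzme were 93.5% identical in a pairwise alignment, and those of Gzme and Gzmg 89.5%. Gzmb shared 76.7% with Gzmc and 67.6% to 69.7% with Gzmd to Gzmg. This bears on the measurement, because the libraries were read in paired ends of 50 bases. Of all stretches of 50 bases in Gzmd transcripts, 21.9% also occurred in another gene, and the share was 20.6% for Gzme, 19.8% for Gzmg, 19.4% for Gzmf and 4.14% for Gzmc. For Gzma, Gzmb, Gzmk, Gzmm and Prf1 it was 0. The levels of Gzmd, Gzme, Gzmf and Gzmg are therefore uncertain wherever fragments of a shared stretch could be assigned to more than 1 gene. The stretch below, coding bases 44 to 93, shows such a case, with bases that differ from Gzmd in capitals (GENCODE M21, GRCm38).
Gzmd: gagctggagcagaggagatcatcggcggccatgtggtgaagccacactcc
Gzme: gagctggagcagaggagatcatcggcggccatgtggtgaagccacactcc
Gzmg: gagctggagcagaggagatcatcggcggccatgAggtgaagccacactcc
Gzmf: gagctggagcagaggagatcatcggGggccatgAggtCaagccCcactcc
Gzmc: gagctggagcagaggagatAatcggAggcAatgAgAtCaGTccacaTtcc
Gzmb: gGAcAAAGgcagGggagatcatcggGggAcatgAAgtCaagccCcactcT
Gzmd and Gzme were identical over these 50 bases, Gzmg differed at 1 base and Gzmf at 4. Gzmc differed at 9 bases and Gzmb at 14, enough to separate them within a single read.

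**Figure D1:**
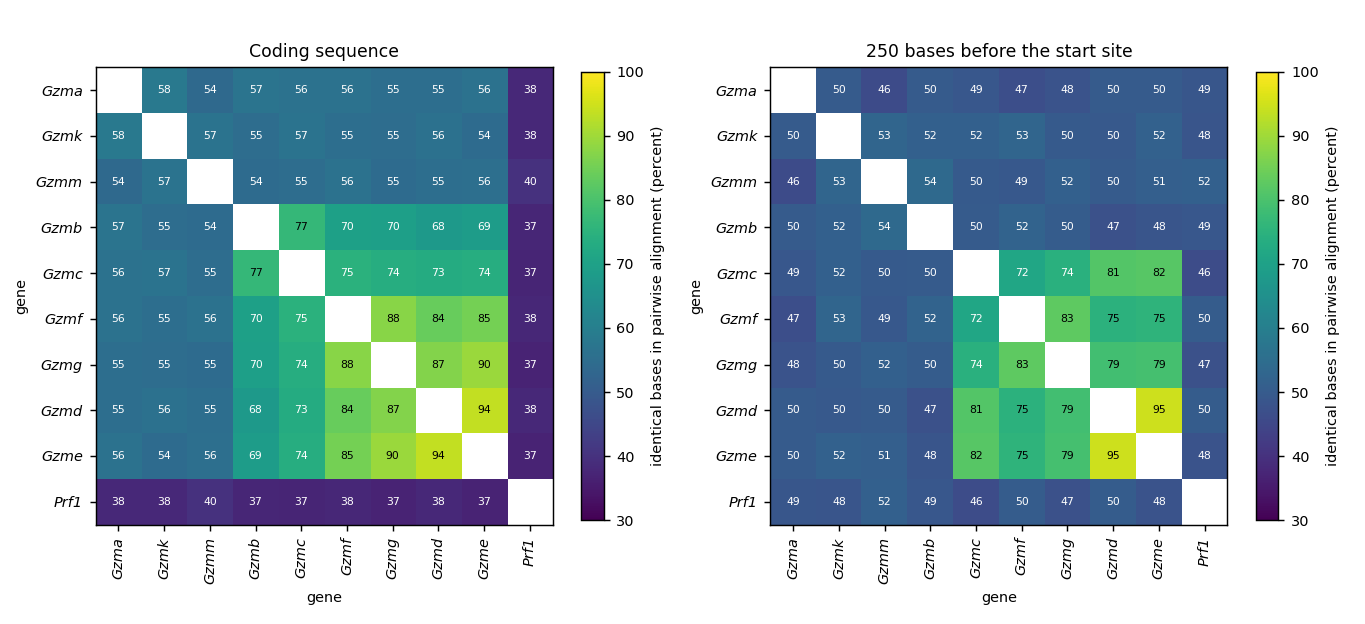
Identity of coding sequences (left) and of the 250 bases before the start site (right) for each pair of the 10 genes, in percent of aligned bases. Gzmd, Gzme, Gzmf and Gzmg form a block of 83.7% to 93.5% coding identity, and Gzmc joins them only upstream of the start site, where the 5 genes share 71.5% to 94.8%.

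The 250 bases before the RefSeq start site grouped the genes in another way. Gzmc, Gzmd, Gzme, Gzmf and Gzmg were 71.5% to 94.8% identical to each other there, whereas Gzmb was 47.3% to 52.2% identical to these 5 genes. That is the level of an unrelated pair such as Gzma and Prf1 (48.8%). Gzmb, although next to Gzmc and most like it in coding sequence, did not share its upstream sequence. The windows of Gzmb, Gzmk and Prf1, the genes with higher levels in both studies below, are printed beside those of Gzmc and Gzmd for comparison (RefSeq, GRCm38.p6, each 5′ to 3′ on the strand of its gene). Capitals mark matches to the RUNX core TGTGGT, the AP-1 motif TGANTCA and the T-box half-site GGTGTGA on either strand, so that ACCACA is the RUNX core on the opposite strand.
Gzmb chr14:56262335-56262584: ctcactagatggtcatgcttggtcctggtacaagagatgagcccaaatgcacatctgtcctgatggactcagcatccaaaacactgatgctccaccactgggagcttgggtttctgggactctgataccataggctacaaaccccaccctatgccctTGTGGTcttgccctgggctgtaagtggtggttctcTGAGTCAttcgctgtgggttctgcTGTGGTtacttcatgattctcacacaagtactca
Gzmk chr13:113180966-113181215: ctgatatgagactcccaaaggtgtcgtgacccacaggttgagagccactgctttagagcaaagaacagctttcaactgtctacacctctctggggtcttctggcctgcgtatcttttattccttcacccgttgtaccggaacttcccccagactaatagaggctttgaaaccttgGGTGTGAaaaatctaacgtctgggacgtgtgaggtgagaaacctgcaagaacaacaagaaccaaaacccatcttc
Prf1 chr10:61297586-61297835: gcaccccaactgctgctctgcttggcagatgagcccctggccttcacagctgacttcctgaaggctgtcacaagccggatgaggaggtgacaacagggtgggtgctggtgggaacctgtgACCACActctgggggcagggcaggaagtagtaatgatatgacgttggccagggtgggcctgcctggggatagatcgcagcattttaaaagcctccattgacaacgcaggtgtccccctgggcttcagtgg
Gzmc chr14:56234658-56234907: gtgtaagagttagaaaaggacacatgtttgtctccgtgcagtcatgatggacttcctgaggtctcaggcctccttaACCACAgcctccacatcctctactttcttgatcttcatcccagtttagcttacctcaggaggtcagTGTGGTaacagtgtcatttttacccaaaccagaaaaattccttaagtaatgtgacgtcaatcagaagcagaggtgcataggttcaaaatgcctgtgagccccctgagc
Gzmd chr14:56132594-56132843: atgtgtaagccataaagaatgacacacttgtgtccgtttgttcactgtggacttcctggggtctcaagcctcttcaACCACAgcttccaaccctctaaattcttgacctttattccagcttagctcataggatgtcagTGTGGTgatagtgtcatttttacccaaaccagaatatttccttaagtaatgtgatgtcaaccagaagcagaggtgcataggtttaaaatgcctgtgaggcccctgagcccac
The RUNX core was found in 16.8% of 32851 promoters, each taken from 250 bases before to 50 bases after the start. It was found in 9 of the 11 promoters listed for the 10 genes (Gzmm has 2 starts). Gzmc to Gzmg each held a pair of matches at similar distances, for example at -174 and -112 in Gzmd. Gzmb held its pair at -93 and -34, and Gzmk held none. The AP-1 motif, in 7.81% of all promoters, occurred at -58 in Gzmb and in none of the others. The T-box half-site, in 3.98% of all promoters, occurred at -75 in Gzmk and at 1 of the starts of Gzmm. These matches describe letters in a window and were not related to the measurements.

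In the 3 cultures of MC-38 cells Gzma to Gzmg and Gzmk were listed at 0 in every culture, and Prf1 was at 0, 0 and 0.0183 FPKM. Gzmm was the exception, with 0.0562, 0.219 and 0.204 FPKM. The cytotoxic genes, Gzmm aside, were thus measured in tumors and not in the cultured line. Against cells, the isotype day 15 tumors were higher in 7 of the 8 genes whose mean reached 0.5 FPKM in either group, where 14.2% of all genes tested were higher. The test was limma on log2(FPKM + 0.1), and a gene was called when its adjusted p lay below 0.01 and it differed by 2-fold or more. The exception was Gzmd (adjusted p = 0.0361, limma), listed at 0 in 1 isotype tumor. Each of the 8 passed the filter through the tumors alone, being at or near 0 in cells, so the count describes and does not support. With no filter Gzme and Gzmg were not called either (limma adjusted p = 0.0124 and 0.0153).

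Before treatment the leading gene of the family was Gzmc. The 3 baseline tumors held 20.6, 29.0 and 15.8 FPKM of Gzmc, all above the 5 isotype day 15 tumors at 1.52, 6.42, 5.35, 2.24 and 7.97 FPKM. Gzmb was at 10.9, 10.8 and 6.53 FPKM at baseline, within reach of the highest isotype day 15 tumor at 7.04 FPKM. Gzma was at 4.64, 3.64 and 7.26 FPKM at baseline and at or below 2.28 FPKM in the isotype day 15 tumors. No granzyme was called between baseline and isotype day 15, against 0.595% of all genes in either direction. The log2 difference was 2.39 for Gzmc (SE 0.50, limma adjusted p = 0.038) and 1.45 for Gzma (SE 0.34, limma adjusted p = 0.0529). Day and identifier run cannot be told apart in this comparison.

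**Figure D2:**
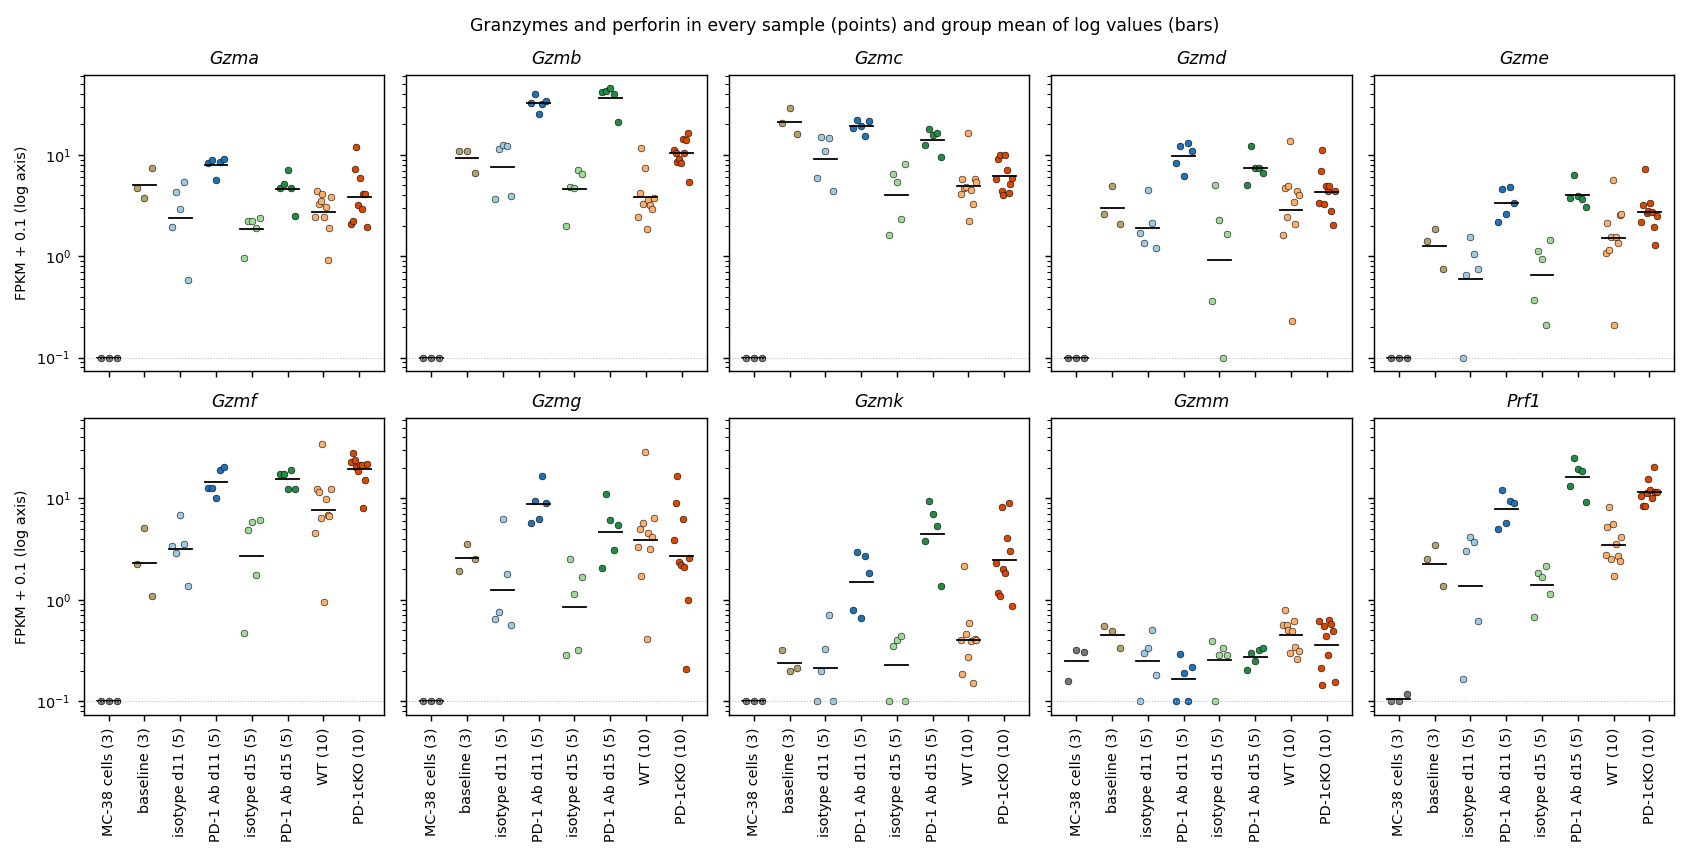
FPKM + 0.1 on a log axis for each of the 10 genes in all 46 samples (points), with the mean of the log values of each group (bars), where the dotted line marks 0 FPKM. Cultured cells sit at the line for all genes but Gzmm and 1 Prf1 value. The bars of the PD-1 Ab groups stand above those of their isotype groups at both days in every gene but Gzmm. Besides Gzmm, points overlap in Gzmk and Gzmg at day 11 and in Gzmd and Gzmg at day 15.

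Ordered by group mean, Gzmb was highest in PD-1 Ab day 15 (38 ± 9.84 FPKM, SD, n = 5) and PD-1 Ab day 11 (32.5 ± 5.11, n = 5), whose ranges overlapped. PD-1cKO followed at 10.7 ± 3.25 FPKM (n = 10), with no overlap with PD-1 Ab day 11, and then baseline at 9.44, isotype day 11 at 8.65, isotype day 15 at 4.93 and WT at 4.33 FPKM, each overlapping the next. Prf1 was likewise highest in PD-1 Ab day 15 (17.1 ± 6.15 FPKM, n = 5), but PD-1cKO (11.9 ± 3.58, n = 10) came before PD-1 Ab day 11 (8.15 ± 2.91, n = 5). Gzmk had the order PD-1 Ab day 15 (5.30), PD-1cKO (3.26), PD-1 Ab day 11 (1.69) and WT (0.440 FPKM). Gzmf was led by PD-1cKO (20.1 ± 5.40 FPKM, n = 10) and Gzmc by baseline (21.8 ± 6.68, n = 3). Gzma was highest in PD-1 Ab day 11 at 8.04 ± 1.41 FPKM (n = 5). Gzmm stayed below 0.7 FPKM in all 46 samples.

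The first question was what a single dose of PD-1 Ab did by day 11. In perforin, PD-1 Ab tumors held 4.92, 12, 5.62, 9.28 and 8.92 FPKM of Prf1, and isotype tumors held 0.0637, 2.95, 4.04, 3.63 and 0.510 FPKM. Every PD-1 Ab tumor was above every isotype tumor. For Gzmb the PD-1 Ab tumors were at 32.4, 39.5, 25.2, 31.7 and 33.9 FPKM, and the isotype tumors at 3.55, 11.4, 12.3, 12.2 and 3.84 FPKM. The gap was wide, with the lowest treated tumor above 25 FPKM and the highest control below 13 FPKM. Gzmk was at 0.695, 2.84, 0.556, 2.60 and 1.74 FPKM after PD-1 Ab. In isotype tumors it was at 0, 0.0959, 0.225, 0.604 and 0 FPKM, so the lowest treated tumor lay under the highest control.

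Gzma, Gzmc, Gzmd, Gzme and Gzmf did not overlap between the groups either (3.59% of all genes tested had every PD-1 Ab tumor above every isotype tumor), whereas Gzmg had 4 of 5 PD-1 Ab tumors above every isotype tumor. Nonetheless no member passed the test, and neither did any other gene (0 of 9 members tested and 0% of 14556 genes, limma; 895 genes had an unadjusted p under 0.05). The log2 differences were 2.09 for Gzmb (SE 0.38, limma adjusted p = 0.135), 2.52 for Prf1 (SE 0.79, adjusted p = 0.481) and 2.81 for Gzmk (SE 0.64, adjusted p = 0.245). Among the neighbours of Gzmb they ran from 1.08 for Gzmc (SE 0.34) to 2.80 for Gzmg (SE 0.60), with 2.36 for Gzmd (SE 0.37, limma adjusted p = 0.0935). All 9 differences were positive, beside a median of 0.26 over all genes. Without the isotype tumor of high mitochondrial share, still none of the 9 was called. The log2 difference of Prf1 was then 1.76 (limma adjusted p = 0.124) and that of Gzme was 1.83 (0.0285). Gzmb was then at 1.83 (limma adjusted p = 0.0285), Gzmd at 2.31 (0.0221) and Gzmf at 2.21 (0.0349). Gzmk was at 2.54 (limma adjusted p = 0.0878), Gzmg at 2.56 (0.0793), Gzma at 1.68 (0.151) and Gzmc at 0.93 (0.172), and the median over all genes was -0.04. Within the identifier run that held isotype replicates 4 and 5 and all PD-1 Ab tumors, the log2 difference was 2.22 for Gzmb (adjusted p = 0.114, limma) and 2.38 for Prf1 (adjusted p = 0.239, limma).

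After the second dose, at day 15, perforin had the smallest adjusted p of the family. Prf1 was at 13.3, 25.1, 19.5, 18.5 and 9.05 FPKM in PD-1 Ab tumors and at 0.570, 1.75, 1.56, 2.04 and 1.05 FPKM in isotype tumors. The groups were far apart, and Prf1 rose by 3.55 on the log2 scale (SE 0.34, limma adjusted p = 0.000806). Gzmb was at 41.3, 42.9, 45.6, 39.5 and 20.9 FPKM in PD-1 Ab tumors and at 1.89, 4.77, 4.62, 7.04 and 6.33 FPKM in isotype tumors. It rose by 3.0 (SE 0.33, limma adjusted p = 0.000837), and replicate 5, the lowest of the treated tumors, still lay well above all controls. Gzmk was at 3.70, 9.35, 6.94, 5.23 and 1.27 FPKM in PD-1 Ab tumors and at 0, 0.250, 0.304, 0.337 and 0 FPKM in isotype tumors. The groups did not overlap. Its fitted rise of 4.30 (SE 0.59, limma adjusted p = 0.00113) depends on the 0.1 FPKM added before the log, since Gzmk was listed at 0 in 2 isotype tumors, and no fold change is given from it.

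These are 3 of the 4 members called higher of 9 tested, where 5.03% of all 15062 genes were called higher. The share of all genes without overlap was not counted at day 15 or in PD-1cKO, so a lack of overlap there is a description only. An unadjusted limma p under 0.05 was found for 5977 genes at day 15 and 7968 in PD-1cKO. Gzmk passed the filter through the PD-1 Ab group alone, and it was also called with no filter (limma adjusted p = 0.00552). The other called member was Gzme, at 3.69, 6.18, 3.86, 3.53 and 2.97 FPKM in PD-1 Ab tumors against 0.272, 1.02, 0.846, 0.108 and 1.36 FPKM in isotype tumors. It rose by 2.62 (SE 0.48, limma adjusted p = 0.004), with no overlap, but the call was lost when isotype replicate 1 or PD-1 Ab replicate 1, 2 or 3 was left out (limma adjusted p from 0.0116 to 0.0143) and with no filter (0.0138). Gzmc, at 12.3, 17.9, 15.7, 16.3 and 9.44 FPKM in PD-1 Ab tumors, also lay above every isotype tumor, and its log2 difference of 1.79 (SE 0.40) missed the threshold by a narrow margin (limma adjusted p = 0.01). It passed without replicate 5 of either group (limma adjusted p = 0.00618 without the PD-1 Ab and 0.00864 without the isotype tumor). Gzmd (2.99, SE 0.86), Gzmf (2.53, SE 0.60) and Gzmg (2.47, SE 0.64) had similar log2 differences to Gzme but larger errors, with limma adjusted p of 0.0281, 0.0131 and 0.0188. Their isotype values spread widely, for example from 0 to 4.98 FPKM for Gzmd and from 0.369 to 6.02 FPKM for Gzmf. Without isotype replicate 1 Gzmf was called (log2 difference 1.89, limma adjusted p = 0.00663).

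Gzma, unlike Gzmb, was not called at day 15. PD-1 Ab tumors held 4.6, 5.01, 6.94, 4.56 and 2.40 FPKM of Gzma and isotype tumors 0.857, 2.15, 2.13, 1.82 and 2.28 FPKM. The groups did not overlap, but the lowest treated tumor was close to the highest control, and the log2 difference was 1.30 (SE 0.31, limma adjusted p = 0.0127). It was called without PD-1 Ab replicate 5, at 1.51 (limma adjusted p = 0.00196). Gzmm did not reach the filter in any comparison between tumor groups of the antibody study, with 0.104 to 0.234 FPKM in PD-1 Ab and 0 to 0.290 FPKM in isotype tumors at day 15. Without a filter its log2 difference was 0.12 (SE 0.36, limma adjusted p = 0.861).

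**Figure D3:**
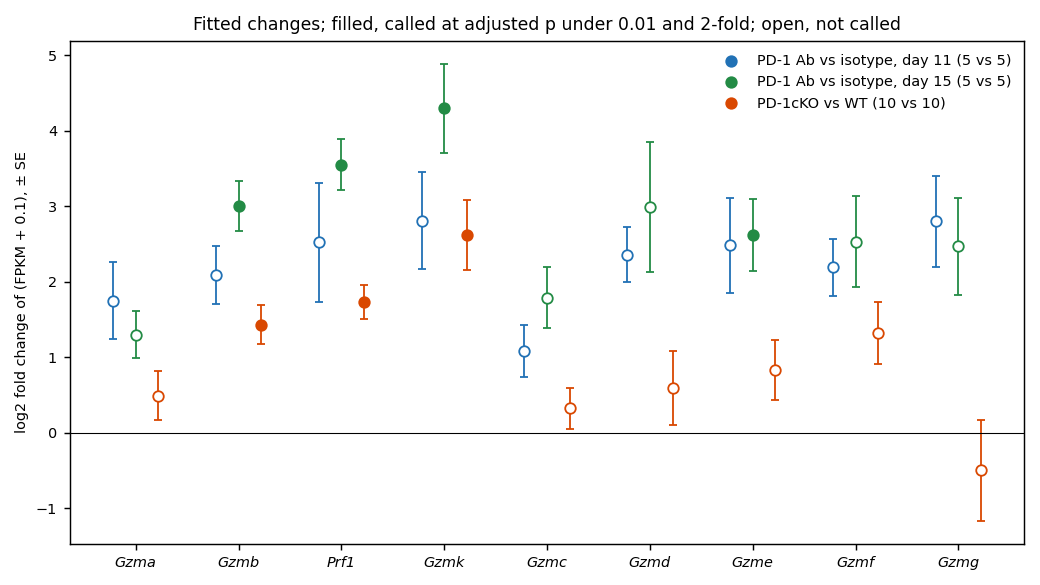
Fitted log2 fold change of FPKM + 0.1 with its SE for the 9 genes tested in each main comparison, with called genes as filled and others as open points. Prf1, Gzmb and Gzmk are filled at day 15 and in PD-1cKO, Gzme is filled at day 15 alone, and Gzmg of PD-1cKO is the single point below 0.

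The third comparison asked which members differed when Pdcd1 was deleted in adult mice. Prf1 ranged from 8.27 to 20.2 FPKM (median 11.3) in the 10 PD-1cKO tumors and from 1.62 to 8.05 FPKM (median 3.05) in the 10 WT tumors, with no overlap. It rose by 1.73 on the log2 scale (SE 0.23, limma adjusted p = 0.000414). Gzmb ranged from 5.34 to 16.2 FPKM (median 10.4) in PD-1cKO and from 1.76 to 11.6 FPKM (median 3.31) in WT. The ranges overlapped because WT replicate 3 reached 11.6 FPKM, yet all 10 PD-1cKO tumors were above the WT median, and Gzmb rose by 1.43 (SE 0.26, limma adjusted p = 0.000999). Gzmk ranged from 0.760 to 8.87 FPKM (median 2.06) in PD-1cKO and from 0.0504 to 2.04 FPKM (median 0.300) in WT, where replicate 3 was again the highest. It rose by 2.62 (SE 0.46, limma adjusted p = 0.000792), a value that depends on the 0.1 FPKM added. With a WT mean of 0.440 FPKM it passed the filter through PD-1cKO alone, and it was also called with no filter (limma adjusted p = 0.00234).

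These 3 genes were the members called of 9 tested, and 4.2% of all 15075 genes were called higher. None of Gzmc to Gzmg was called. Gzmf came nearest, at 7.98 to 27.9 FPKM (median 21.5) in PD-1cKO and 0.841 to 34.1 FPKM (median 8.30) in WT. Its log2 difference was 1.32 (SE 0.41, limma adjusted p = 0.015), and 9 of 10 PD-1cKO tumors were above the WT median. Gzmf was called under median-of-ratios scaling (1.48, limma adjusted p = 0.00761), upper-quartile scaling (1.43, 0.00913) and in the fit of all 43 tumors (0.00900). Gzmc had medians of 5.72 and 4.66 FPKM and a log2 difference of 0.32 (SE 0.27, limma adjusted p = 0.32). Gzmg had a lower median in PD-1cKO (2.38 FPKM, range 0.106 to 16.5) than in WT (4.25 FPKM, range 0.307 to 28.7), with a log2 difference of -0.50 (SE 0.67, limma adjusted p = 0.55). WT replicate 5 held the highest WT value of all of Gzmc to Gzmg, with 16.5, 13.6, 5.58, 34.1 and 28.7 FPKM, and without it Gzmf was called at 1.56 (limma adjusted p = 0.00443). Gzma was at 1.86 to 11.8 FPKM in PD-1cKO and 0.816 to 4.27 FPKM in WT (log2 difference 0.49, SE 0.32, limma adjusted p = 0.214). Gzmm was at 0.0457 to 0.530 FPKM in PD-1cKO and 0.163 to 0.694 FPKM in WT.

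Genotype and identifier run were largely nested here, and with the run as a covariate none of the 3 genes kept an adjusted p under 0.01. In that fit 0 of all genes tested were called, against 1217 in either direction without the covariate. The log2 difference was then 2.10 for Prf1 (limma adjusted p = 0.0254), 1.63 for Gzmb (0.0282) and 3.43 for Gzmk (0.0257), none smaller than without it, while that of Gzmf fell to 0.31 and that of Gzmg reached -3.22 (limma adjusted p = 0.0308). The 7 PD-1cKO tumors in a run without WT tumors carry no information on the genotype difference in that fit. The fit rests on the runs below, so their values are not separate evidence. In the run with 9 WT tumors, the single PD-1cKO tumor had 20.2 FPKM of Prf1, 13.8 of Gzmb and 8.87 of Gzmk, each above the 9 WT tumors. In the run with 2 PD-1cKO tumors and 1 WT tumor, Prf1 was at 11.5 and 11.5 against 4.08 FPKM and Gzmb at 16.2 and 5.34 against 3.64 FPKM. Gzmg was lower in the PD-1cKO tumors of both runs, at 0.106 FPKM against at least 0.307 and at 0.902 and 2.50 against 6.26 FPKM.

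No member was called between the days or between the models. From day 11 to day 15 under isotype 0% of genes were called, and under PD-1 Ab 0.0598%. Under PD-1 Ab the log2 difference between days was 1.05 for Prf1 (SE 0.30, limma adjusted p = 0.0388), 1.58 for Gzmk (SE 0.56, adjusted p = 0.0737) and -0.82 for Gzma (SE 0.24, adjusted p = 0.0435). Gzmb differed by 0.19 (SE 0.20, limma adjusted p = 0.511). The days came from different identifier runs, so run and day cannot be told apart. The antibody effect did not pass the test of a difference between days for any member (0% of genes). Between the antibody effect at day 15 and the PD-1cKO effect, 0.0914% of all genes and no member were called. Prf1 had the smallest adjusted p of the 9, with an antibody effect larger by 1.82 on the log2 scale (SE 0.43, limma adjusted p = 0.0412), and Gzmb followed at 1.56 (SE 0.46, adjusted p = 0.108).

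To compare Gzmk and the neighbours of Gzmb with Gzmb itself, the log2 ratio to Gzmb was taken in each tumor and tested by permutation over 18 ratios and comparisons. The ratio of Gzmc to Gzmb was lower under PD-1 blockade in all 3 comparisons, and 1 of the 18 tests passed an adjusted p of 0.05. At day 11 it ran from -1.04 to -0.38 in PD-1 Ab and from -0.18 to 0.71 in isotype tumors, without overlap (difference -1.01, exact permutation p = 0.00794, adjusted p = 0.0714). The p of 0.00794 is the smallest that 5 against 5 tumors allow. At day 15 the difference was -1.20 (exact permutation p = 0.0397, adjusted p = 0.119). There the isotype tumor of replicate 4 lay at -1.61, far from the other 4. In PD-1cKO the ratio ran from -1.71 to 0.26 (median -0.76) and in WT from -1.33 to 1.18 (median 0.51). The difference of -1.11 was the one that passed (permutation p = 0.00253, adjusted p = 0.0455). It was close to the threshold, since leaving out 1 tumor at a time gave an adjusted p at or above 0.05 in 16 of 20 cases, with differences from -1.30 to -1.0.

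The ratio of Gzmk to Gzmb was higher by 1.31 at day 15 (exact permutation p = 0.0317, adjusted p = 0.114) and by 1.19 in PD-1cKO (permutation p = 0.0164, adjusted p = 0.0795) with 0.1 FPKM added, but with 1 FPKM added it was -0.49 at day 15 and 0.15 in PD-1cKO (permutation p = 0.625). Gzmk was so low in controls that its change relative to Gzmb was given no direction. For Gzmd, Gzme and Gzmf no ratio to Gzmb had a permutation p under 0.1 in any comparison with 0.1 FPKM added. This too depended on the value added. With 1 FPKM the difference for Gzme was -1.17 at day 15 (exact permutation p = 0.0238) and -0.73 in PD-1cKO (permutation p = 0.0393). That for Gzmd was -0.88 in PD-1cKO (permutation p = 0.0341), and each of these had an adjusted p of 0.101. The ratio of Gzmg to Gzmb was lower by 1.93 in PD-1cKO (difference -1.93, permutation p = 0.0177, adjusted p = 0.0795), with values from -6.07 to 0.98 against -2.77 to 1.97 in WT.

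Since T-cell genes moved with the granzymes, 4 members were also set against Cd8a, which encodes a chain of the CD8 co-receptor (12 tests). Cd8a itself rose by 3.06 at day 15 and by 1.89 in PD-1cKO (limma with no filter, adjusted p = 0.00466 and 0.0013). Both values exceed the log2 differences of Gzma given above, so a lower ratio of Gzma to Cd8a is not a fall of Gzma. The ratio tests, here and against Gzmb, did not take the identifier run into account. At day 15 the log2 ratio of Gzma to Cd8a ran from -3.02 to -2.06 in PD-1 Ab and from -1.23 to -0.14 in isotype tumors, with no overlap (difference -1.77, exact permutation p = 0.00794, adjusted p = 0.0476). In PD-1cKO the ratio had a median of -2.03 and in WT of -0.12, and 7 of 10 PD-1cKO tumors were below every WT tumor (difference -1.41, permutation p = 0.00291, adjusted p = 0.0349). Both stayed under an adjusted p of 0.05 when any 1 tumor was left out, with an adjusted p of at most 0.0476. At day 11 the difference was 0.11 (exact permutation p = 0.849). Gzmb and Prf1 did not pass relative to Cd8a in any comparison. In PD-1cKO the difference for Gzmb was -0.46, in the same direction as that of Gzma, with 5 of 10 tumors below every WT tumor (permutation p = 0.0287, adjusted p = 0.0688). It passed without PD-1cKO replicate 3 (-0.55, permutation test, adjusted p = 0.0317) or WT replicate 6 (-0.53, adjusted p = 0.0476). The differences at day 15 were -0.07 for Gzmb (exact permutation p = 0.754) and 0.49 for Prf1 (exact permutation p = 0.111). For Gzmk the difference was 1.24 at day 15 with 0.1 FPKM added (exact permutation p = 0.0159, adjusted p = 0.0635) and -0.48 with 1 FPKM added.

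**Figure D4:**
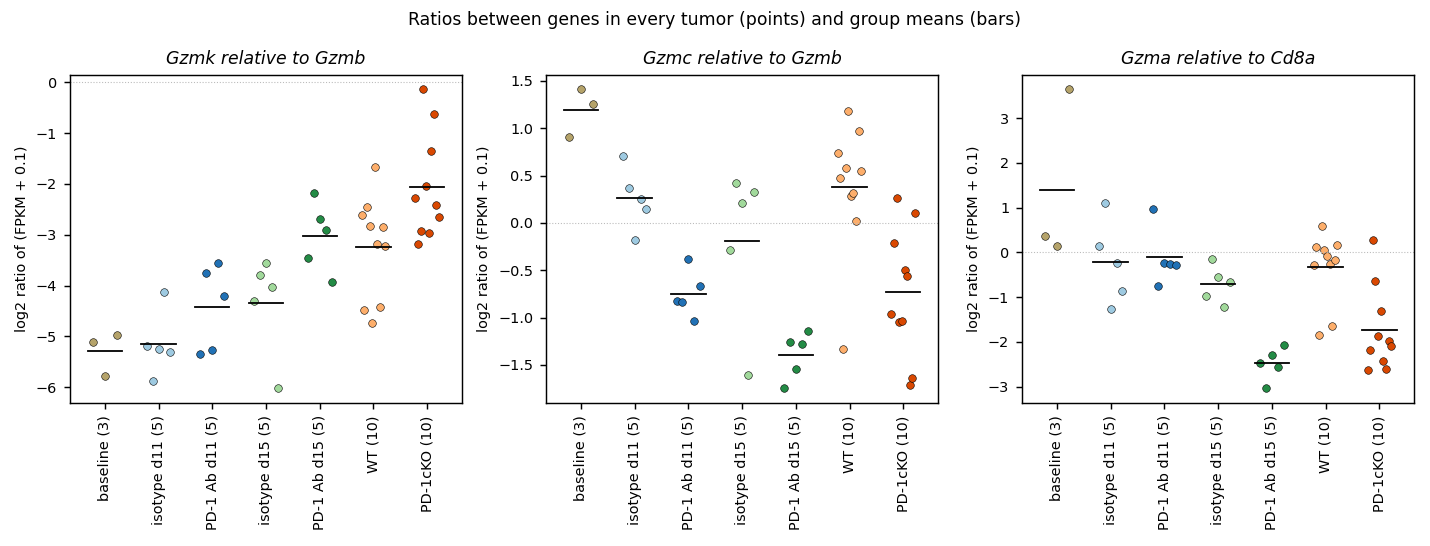
Log2 ratio of FPKM + 0.1 in each tumor (points, with group means as bars) for Gzmk to Gzmb, Gzmc to Gzmb and Gzma to Cd8a over the 7 tumor groups, numbers of tumors in brackets. The Gzma to Cd8a ratio of the 5 PD-1 Ab day 15 tumors lies between -3.02 and -2.06, below all 5 isotype day 15 tumors, and the Gzmk to Gzmb ratio depends on the 0.1 FPKM added.

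As a share of the summed FPKM of the 10 genes, which is a description per length, Gzmc took less and Prf1 more under PD-1 Ab at day 15. The sum was 6.21 to 28.5 FPKM in isotype day 15 and 70.4 to 147 FPKM in PD-1 Ab day 15 tumors. Gzmc made up 44.3% ± 2.07 of it at baseline (SD, n = 3), 22.4% ± 5.07 in isotype day 15 (n = 5) and 12.8% ± 0.832 in PD-1 Ab day 15 (n = 5). Prf1 made up 4.63% ± 1.08 at baseline, 7.71% ± 3.54 in isotype day 15 and 14.9% ± 1.90 in PD-1 Ab day 15. Gzmk reached 4.36% ± 1.78 in PD-1 Ab day 15 and 4.86% ± 4.38 in PD-1cKO, with a highest tumor of 13.8%. In the deletion study Gzmf was the largest single part by mean, at 29.2% ± 7.52 in PD-1cKO and 23.9% ± 6.79 in WT (n = 10 each). In PD-1 Ab tumors of both days it was Gzmb. In isotype day 15 tumors Gzmb also came first by mean, at 26.7% ± 11.4 beside 22.4% ± 5.07 for Gzmc (n = 5). In isotype day 11 tumors Gzmc came first, at 32.2% ± 6.07 beside 26.6% ± 3.67 for Gzmb (n = 5). Fragments shared among Gzmd to Gzmg bear on these shares. For Gzmf the largest overlap was with another gene, Gm4022, which held 12.1% of its stretches of 50 bases.

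**Figure D5:**
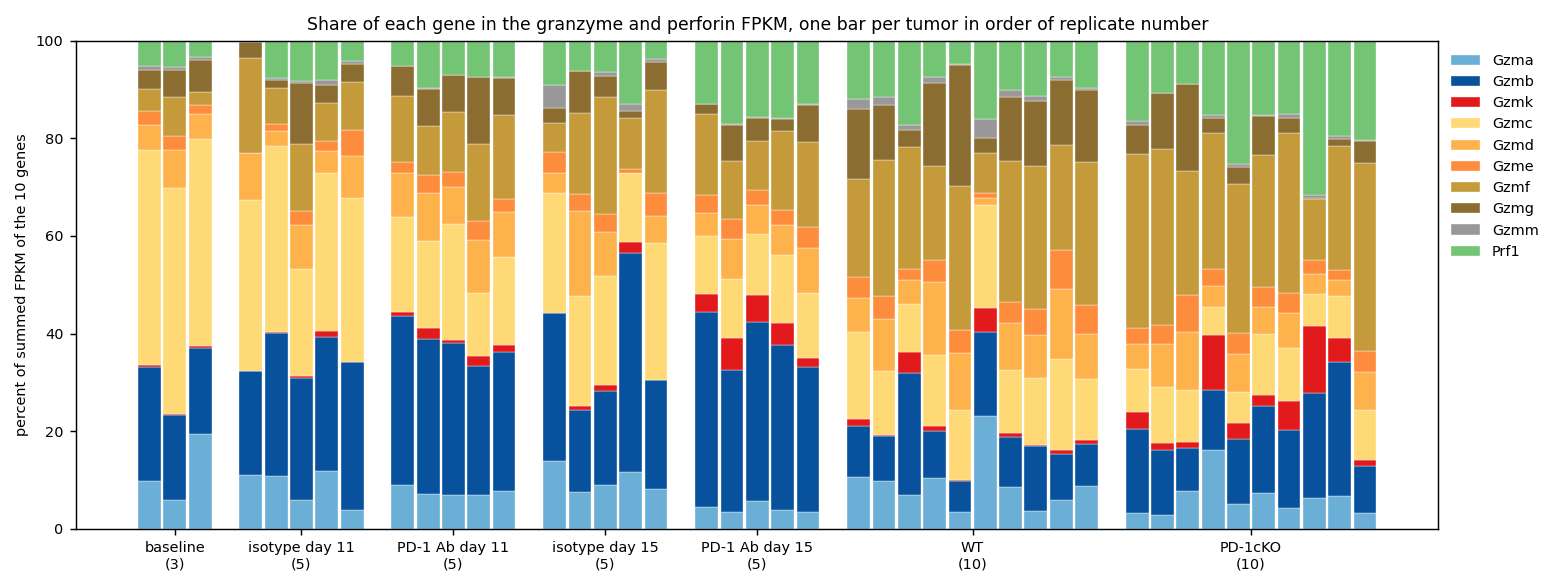
Percent of the summed FPKM of the 10 genes taken by each gene, with 1 stacked bar per tumor in the 7 tumor groups. Gzmc (pale yellow) takes 42.4% to 46.5% at baseline and 11.9% to 13.9% in PD-1 Ab day 15, and Gzmk (red) is widest in PD-1cKO, at up to 13.8%.

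Genes that pack, activate and release granules were called in part at day 15. Of 13 tested genes of that list, 7 were called higher (5.03% of all genes) and none lower, with a median log2 difference of 1.18 beside -0.04 for all genes. Srgn, the proteoglycan core that holds granzymes in the granule, rose by 1.33 (limma adjusted p = 0.00195), and Ctsc, the cathepsin that removes the propeptide of granzymes, rose by 1.28 (adjusted p = 0.00106). Nkg7, a granule membrane protein, rose by 2.96 (limma adjusted p = 0.000885). Of the release machinery, Rab27a rose by 1.82, Unc13d by 1.59 and Stxbp2 by 1.18, and Ctsh, which can also process progranzyme B, rose by 1.03. Lamp1, the most abundant of the list at 318 FPKM in isotype day 15, had a log2 difference of 0.08 (SE 0.10, limma adjusted p = 0.573). In PD-1cKO 3 of 13 were called higher (4.2% of all genes), namely Nkg7 (1.94), Rab27a (1.29) and Unc13d (1.09), with a list median of 0.38 beside -0.20 for all genes. Ctsc then had a log2 difference of 0.21 (SE 0.13, limma adjusted p = 0.199).

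Among inhibitors, Cst7, which encodes cystatin F, an inhibitor of the granzyme-activating cathepsins, rose by 2.62 at day 15 and by 1.62 in PD-1cKO (limma adjusted p = 0.00106 and 0.000766). Serpinb9b rose by 1.86 at day 15 from a mean of 0.0781 to 0.567 FPKM, and so passed the filter through the PD-1 Ab group alone. It was also called with no filter (limma adjusted p = 0.00597). Serpinb9, the serpin that inhibits granzyme B, had a log2 difference of 0.88 (SE 0.15), under the 2-fold limit. Called higher were 2 of 4 tested inhibitors at day 15 (5.03% of all genes) and 1 of 3 in PD-1cKO (4.2%). Of 9 intracellular substrates none was called at day 15. In PD-1cKO Set, a target of granzyme A, was called lower (limma adjusted p = 0.00497), but not with no filter. The uptake receptors Igf2r and M6pr were not called in any of the 3 comparisons.

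Of 8 transcription factors tied to cytotoxic cells the same 3 were called higher in both studies (5.03% and 4.2% of all genes). Tbx21, which encodes T-bet, rose by 2.10 at day 15 and by 1.80 in PD-1cKO. Id2 rose by 1.67 and 1.20, and Tox by 1.97 and 1.68. Tox, at 0.321 FPKM in isotype day 15 and 0.311 in WT, passed the filter through the PD-1 Ab and PD-1cKO groups alone, as did Tbx21 in the deletion study (WT 0.488 FPKM). With no filter Tox was not called at day 15 (limma adjusted p = 0.0141) and was called in PD-1cKO (0.00544), and Tbx21 was called in both. Eomes (log2 difference 0.14 at day 15 and 0.41 in PD-1cKO) and Runx3 (0.69 and 0.47) were not called. Of the other effector ligands, Fasl rose by 2.55 at day 15 and by 1.62 in PD-1cKO, and Ifng by 2.52 and 1.02. Fasl passed the filter at day 15 through the PD-1 Ab group alone and was also called with no filter (limma adjusted p = 0.00574), whereas Ifng lost its call in PD-1cKO with no filter. Tnfsf10, which encodes TRAIL, rose by 1.84 at day 15, and its log2 difference in PD-1cKO was 0.60 (limma adjusted p = 0.078). Tnf was not called. At day 11 no gene of any of these lists was called.

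Markers of several cell types moved with the granzymes. All 7 genes listed for CD8 T cells (Cd8a, Cd8b1, Cd3d, Cd3e, Cd3g, Cd2 and Trac) were called higher at day 15 and in PD-1cKO, also with no filter. Only Cd8a and Cd8b1 encode the CD8 co-receptor, and the others are not particular to CD8 T cells. The counts of calls higher stand beside 5.03% and 4.2% of all genes called higher. The summed level of the 7 genes was 10.7 to 22.9 FPKM in isotype day 15, 46 to 190 in PD-1 Ab day 15, 10.2 to 43.9 in WT and 28.3 to 124 FPKM in PD-1cKO, and none of them was at 0 throughout a tumor group. At day 11 the sum was 5.12 to 28.9 FPKM in isotype and 20.2 to 71.7 FPKM in PD-1 Ab tumors, with none called. Of NK markers, 2 of 4 tested were called higher at day 15 (Klre1 and Klrk1) and none of 3 in PD-1cKO, with summed levels of 3.57 to 7.86 against 11.4 to 29.4 FPKM and of 3.31 to 8.82 against 3.0 to 16.2 FPKM. The other listed NK markers were not called at day 15. With no filter their log2 differences were 1.36 for Ncr1 (limma adjusted p = 0.0721), 1.35 for Klrb1c (0.0326) and 0.68 for Klra8 (0.515). Mast cell markers were called higher in 8 of 9 at day 15 (7.10 to 21.5 against 26.5 to 122 FPKM) and in none of 8 in PD-1cKO. For CD4 and regulatory T cells 3 of 4 markers were called higher at day 15 and 2 of 3 in PD-1cKO, and for macrophages 4 of 4 and 1 of 4. Foxp3 was not among those called. With no filter its log2 difference was 0.40 at day 15 (limma adjusted p = 0.362) and 0.71 in PD-1cKO (limma adjusted p = 0.0587). Neutrophil markers were called lower in 1 of 2 at day 15 and higher in 3 of 4 in PD-1cKO, of which Camp and Ngp passed the filter through PD-1cKO alone. At day 15, 799 of 15062 genes were called in either direction, and 758 of them were higher. Without the filter 450 genes in all were called at day 15 and 822 in PD-1cKO, in either direction. The marker calls that stayed at day 15 were 2 of the 8 for mast cells, 1 of the 2 for NK cells and 0 for neutrophils, muscle and adipose tissue. They were 2 of the 3 for CD4 and regulatory T cells (Cd4 was lost) and 3 of the 4 for macrophages. In PD-1cKO 1 of the 3 neutrophil calls stayed. For skeletal muscle and adipose tissue 1 of 3 markers each was called higher at day 15 and none in PD-1cKO, and no plasmacytoid dendritic marker was called. The part of these cell types in the granzyme results was not tested.

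How members varied together was examined among tumors of one genotype in the deletion study (8 relations with Gzmb). In the 10 WT tumors Prf1 followed Gzmb, with Pearson's r = 0.93 (permutation p = 2.00e-05, adjusted p = 0.000160) and Spearman's rho = 0.92 (permutation p = 0.000520, adjusted p = 0.00416). It was 0.88 without the 2 tumors farthest from the Gzmb median and 0.94 within the run of 9 WT tumors. In the 10 PD-1cKO tumors r was 0.23 (permutation p = 0.513) and rho was 0.26 (permutation p = 0.469), and whether the genotypes differ in this was not tested. Gzma, Gzmk and Gzmc did not pass with Gzmb in either genotype. In WT the r of Gzmk with Gzmb turned from 0.42 (rho = -0.18) to -0.56 without the 2 farthest tumors, so it rested on them.

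Over the 43 tumors, which come from different groups and whose depth was not derived, the members fell into loose sets. These sets are given as a description. Gzmd correlated with Gzme at 0.86, with Gzmg at 0.83 and with Gzmf at 0.78, genes that share sequence. Gzmk correlated with Prf1 at 0.87 and with Gzmb at 0.69, and Gzmc with Gzmb at 0.73 but with Gzmk at 0.21. After subtracting each group's mean, Gzmc was closer to Gzmd, Gzme, Gzmf and Gzmg (0.73 to 0.78) than to Gzmb (0.58), and Gzmk with Prf1 was at 0.56, so the sets were not the same on both scales. Among 13229 genes averaging 1 FPKM or more in tumors, the pattern of Gzmk was most like those of Gimap3, Trbc2, Nkg7, Cxcr6 and Slamf7 (r from 0.92 to 0.94 over 43 tumors). For Gzmb they were Ly6i, Ifng, Il1rn, AW112010 and P2ry14 (0.87 to 0.89), and for Gzmc Serpina3g, Ms4a4d, 9330175E14Rik, Ube2l6 and Cmpk2 (0.70 to 0.72). After subtracting each group's mean, Gimap3 (0.82) and Trbc2 (0.81) stayed closest to Gzmk, Samhd1 (0.81) and Ifng (0.80) were closest to Gzmb and Irf7 (0.58) to Gzmc. For Gzmm no gene passed 0.65 over the 43 tumors.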

How the data were processed

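Whole tumors or cells gave the RNA. Per the labels, libraries came from a stranded, ribosome-depleted total RNA kit and were read in paired ends of 50 bases. The deposited table holds FPKM per gene. Per the methods, the authors aligned reads to Mouse.B38 with the Omicsoft Aligner and quantified Ensembl gene models with OSA in Omicsoft Array Studio. The authors tested raw counts with DESeq2, and neither those counts nor columns of their comparisons were used here. Depth per sample was not derived, since the values are estimates (3743 lay above 0 but under 1e-06), so precision is the spread between tumors. The labels number tumors as replicates, and p-values measure the spread between them. A value of 0.1 FPKM was added before logs, so fold changes of low genes are understated. Genes averaging 0.5 FPKM or more in a compared group were fitted with limma 3.58.1 (R 4.3.3, eBayes with a trend) on the groups compared, with Benjamini-Hochberg adjustment over all genes tested. A call needed an adjusted p below 0.01 and a 2-fold difference. The fit was tested on simulated data. Ratios and correlations were tested by 2-sided permutation, exact over 252 splits for 5 against 5 tumors and with 100000 resamples otherwise, in families of 18, 12 and 8 tests with a limit of 0.05.

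All 10 members are named. From the pathway lists, genes called and the 3 with the highest mean in isotype day 15 could be named. The members and lists were chosen with earlier results of these data known. Gene models came from GENCODE M21 (99.1% of gene identifiers matched) and promoters from RefSeq (GRCm38.p6), aligned with Biopython 1.88. Alternatives changed the added value, filter, scaling, threshold, samples in the fit, identifier run and a replicate-number block. The fit within 1 identifier run at day 11 was chosen after seeing the data. Same-numbered tumors did not deviate together (correlations from -0.209 to 0.16), so numbers were not used as pairs. The result of 1 gene of the substrate list is not reported here.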

Additional observations from a re-analysis of the deposited data

Results flagged for a closer look

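Of 60 sets of values (1 gene in 1 group of 5 or 10 samples), 13 held a tumor that stood apart by Dixon's test on FPKM without logs. Chance marks about 1 in 20 only where values are normally distributed, which was not checked, so the 13 are not read against that rate. WT replicate 5 was the highest for Gzmc (16.5 FPKM, next tumor 5.67), Gzmd (13.6, next 4.88), Gzme (5.58, next 2.50), Gzmf (34.1, next 12.4) and Gzmg (28.7, next 6.26). These 5 genes are neighbours with shared sequence, so they are not independent cases, and in the same tumor Gzmb was at 7.26 FPKM and Gzmk at 0.175 FPKM. WT replicate 3 was instead the highest for Gzmk (2.04, next 0.486).

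Isotype day 11 replicate 3 was the highest of its group for Gzmd (4.36, next 2.01) and Gzmg (6.14, next 1.71). In PD-1 Ab tumors, Gzmb of day 15 replicate 5 was low (20.9, next 39.5), Gzme of day 15 replicate 2 was high (6.18, next 3.86) and Gzma of day 11 replicate 3 was low (5.60, next 8.24). In PD-1cKO, Gzma of replicate 4 (11.8, next 7.16) and Gzme of replicate 3 (7.16, next 3.23) were high.

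The effect on Prf1 differed between the models by 1.82 on the log2 scale, larger with antibody at day 15 than in PD-1cKO, with a limma adjusted p of 0.0412 that is under 0.05 but above the limit of 0.01 used for calls. Model, day and identifier run cannot be told apart in it.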

How the results depend on the processing

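Gzmb, Gzmk and Prf1 were called under all 19 alternatives at day 15 and under 29 of 30 in PD-1cKO, the exception being the identifier run as a covariate, which left 0 members and 0 of all genes called. In that fit the log2 difference turned to -0.11 for Gzmc and -0.16 for Gzmd. With all 43 tumors in one fit, 1 member was called at day 11, 7 at day 15 and 1 between baseline and isotype day 15. At an adjusted p under 0.05 with no fold limit the counts were 9 at day 15, 1 for baseline, 2 between the PD-1 Ab days and 1 between the models. Leaving out 1 tumor at a time gave 0 to 2 members between the PD-1 Ab days (2 without PD-1 Ab day 15 replicate 5), 3 to 6 at day 15, 3 to 4 in PD-1cKO and 5 to 8 against cells. Apart from the identifier-run fit, the shares of all genes called under these settings are not given here. A looser limit or a larger fit can raise those shares too, so these member counts are descriptions only.

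With 1 FPKM added, the log2 ratio differences turned to -0.84 (day 11) and -0.49 (day 15) for Gzmk to Gzmb, -0.04 for Gzmd, -0.56 for Gzme and -0.06 for Gzmf to Gzmb at day 11, 0.02 for Gzmb to Cd8a at day 15, and -0.21, -0.48 and -0.27 for Gzmk to Cd8a in the 3 comparisons. With 0.01 FPKM added, Gzmd to Gzmb at day 15 turned to 0.73. Of 18 ratios to Gzmb, 0 passed with 1 FPKM and 3 with 0.01 FPKM, and of 12 ratios to Cd8a 5 passed with 0.01 FPKM. With 1 tumor left out, 0 to 4 ratios to Gzmb and 2 to 4 ratios to Cd8a passed. The sign then varied for Gzmd to Gzmb (-0.01 to 0.49 at day 11, -0.97 to 0.59 at day 15), Gzmf to Gzmb (-0.08 to 0.39 at day 11, -0.33 to 0.08 in PD-1cKO), Gzma to Cd8a at day 11 (-0.16 to 0.44) and Gzmb to Cd8a at day 15 (-0.20 to 0.05). Apart from the changes in construction named here, the cause was not tested.

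With the replicate number as a block, 0 members were called at day 11 and 3 in PD-1cKO. At day 15 there were 4, with Gzmg in place of Gzme. For the ratios to Gzmb or to Cd8a the block was a permutation within same-numbered pairs, and 0 passed. At day 11 and day 15 the pairs were too few for any p under 0.05, so the block could not test those ratios. In PD-1cKO the adjusted p of this permutation test was 0.225 for Gzmc to Gzmb and 0.148 for Gzma to Cd8a. Over all genes the block moved the calls from 799 to 316 at day 15 and from 1217 to 891 in PD-1cKO. Same-numbered tumors share only a number. Depth per sample was not derived, so the counting error of values near 0, those of Gzmk in controls and of Gzmm throughout, was not estimated.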
